A study of Gallus gallus with 6 samples.

Results

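Forelimb mesenchyme at Hamburger-Hamilton (HH) stage 19, here the bud, was compared with presumptive forelimb mesenchyme at HH15, here the field, in chick (Gallus gallus). Each side was 1 polyA RNA-seq library of tissue taken directly from embryos, with no treatment given in the labels. The labels call the cells of both libraries mesenchyme and do not give the strain or the number of embryos in a library, so each may be a pool. The genes described are those at 1 CPM (reads of a gene per 1000000 reads on genes in its library) or more in either library, which left 11807 of the 17781 genes in the table. A gene was counted as higher or lower when log2(CPM + 1) in the bud minus that in the field was at least 1 in size, which is 2-fold on that scale. By that count 405 genes were higher in the bud (3.43% of the genes tested), 729 were lower (6.17%) and 1134 differed in either direction (9.60%).

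With 1 library a side there was no replicate and no test. Levels are followed, where given in brackets, by exact 95% Poisson intervals, and folds (bud over field in CPM) by exact conditional intervals. Where 1 library had 0 reads, the fold is given against a floor of 3 reads, which takes the reads of the other library as exact, with the lower end of the conditional interval in brackets. Both kinds of interval, like the floor, hold counting error alone and not the spread between embryos or dissections. Counts past 2-fold describe these libraries alone. Genes are named by size within all genes and within each list. Others are marked as chosen from their values or as outside the naming rule.

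The series held 6 libraries, with hindlimb at HH18 and neck, flank and a sample labelled flank and neck at HH19 beside the pair compared here. The bud library had 7957948 reads on genes and the field library 7130877, so that 3 reads were 0.377 CPM and 0.421 CPM. Mitochondrial genes took 24.2% of reads in the bud and 22.8% in the field. The library labelled flank and neck had HOXD12 at 237 CPM, whereas neck and flank had it at 0.369 CPM and 0.483 CPM, and its levels are not set beside the results here. TBX5, the T-box factor of the forelimb field, chosen from its values, had 182 CPM in the bud and 336 CPM in the field. The limb mesenchyme homeobox gene PRRX1 had 264 CPM in the bud and 491 CPM in the field, so both libraries carried these markers of the labelled tissue.

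The forelimb grows out of the somatic layer of the lateral plate mesoderm. Before a bud is visible, this layer is organised as an epithelium that lines the coelom. Its cells then lose that organisation and fill the bud as mesenchyme, covered by ectoderm with the apical ridge, whose FGF signals and the mesenchymal FGF, SHH and BMP antagonist signals maintain outgrowth. Muscle precursors and vessels enter the bud from the somites and the trunk.

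Most genes differed little between bud and field. The median difference over all genes tested was -0.10 on the log2 scale, with quartiles of -0.39 and 0.19, and 10673 genes (90.4%) stayed within 2-fold. At 4-fold or more, 84 genes were higher in the bud and 135 lower. At 8-fold or more, 30 were higher and 33 lower. In all 405 higher and 729 lower genes the counting interval of the fold excluded equality. At these depths the 2-fold rule itself brings this about, so it adds no support to a call. The share past 2-fold was 13.9% of the genes with a mean of 1 to 10 CPM, 6.45% at 10 to 100 CPM, 4.19% at 100 to 1000 CPM and 0.8% of the 125 genes above 1000 CPM. Genes tested with a mean under 1 CPM, which reached 1 CPM in 1 library alone, are outside these shares. Scaling bears on the balance of the directions. With TMM scaling the median of all genes was 0.002 rather than -0.10. Centred on the median, 500 were higher and 575 lower, so that 46.5% of the genes past 2-fold were higher, against 35.7% with plain CPM. The median of each list is therefore read against that of all genes. Its counts are read against the 3.43% higher and 6.17% lower of all genes.

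**Figure D1:**
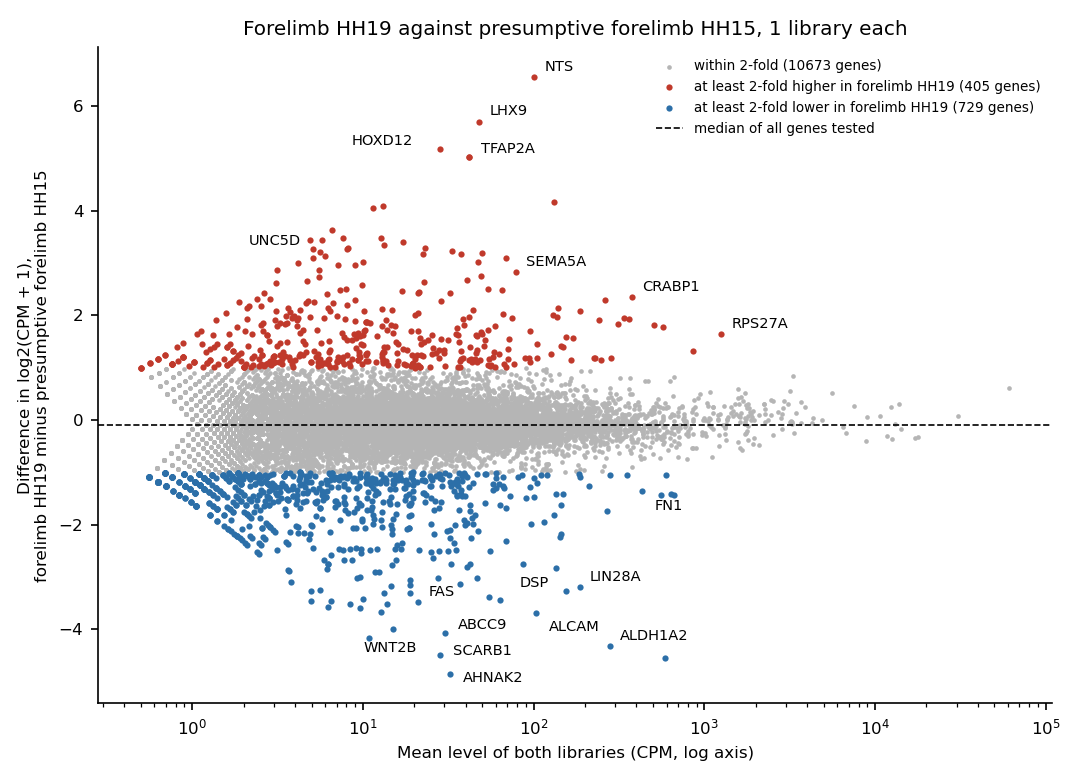
Difference in log2(CPM + 1) between forelimb HH19 and presumptive forelimb HH15 against the mean level of both libraries on a log axis, 1 point per gene tested, with 405 higher genes in red, 729 lower genes in blue and the median of all genes dashed. The widest spread was among genes of low and middle level, and RPS27A was the only gene past 2-fold at the right end.

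At the edge of the 1 CPM rule, CHRNA7 with 1.01 CPM in the bud and 0.421 CPM in the field and ATP6V1C2 with 1.01 CPM in the bud and 0.841 CPM in the field were just inside. ACMSD with 0 CPM in the bud and 0.982 CPM in the field and ADAMTSL2 with 0.251 CPM in the bud and 0.982 CPM in the field were just outside. Among the genes tested, 87 had 0 reads in the bud and 19 had 0 in the field.

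The limb lists give the scale of the change in genes known to act in the bud. Of 35 limb patterning genes tested, 16 (45.7%) were higher in the bud and 2 (5.71%) lower, where all genes had 3.43% and 6.17%. DESeq2 scaling or centring left 1 lower. The median difference of these 35 genes was 0.98. LHX9, a LIM homeobox factor of the distal limb mesenchyme, had 95 CPM (88.3 to 102) in the bud and 0.841 CPM (0.309 to 1.83) in the field. The T-box factor TBX15 had 22.5 CPM in the bud and 0.421 CPM in the field. GREM1, a BMP antagonist that keeps the ridge signalling, had 1 read in the field, with 11.4 CPM in the bud and 0.140 CPM in the field, and was 81.5-fold higher (14.3 to 3256). TBX5 and PRRX1, given above, were within 2-fold. Of 9 posterior HOX genes tested (paralogue groups from HOXA9 on), 7 (77.8%) were higher and 1 (11.1%) lower, with a median of 2.62. HOXD12 was 99.2-fold higher (38.5 to 366) and HOXA11 45.5-fold higher (17.5 to 169) in the bud. HOXB9, the lower one, chosen from its values, had 4.78 CPM in the bud and 20.6 CPM in the field. Of 13 anterior and central HOX genes, 0 were higher and 3 (23.1%) lower, with a median of -0.67. HOXB1, an early anterior HOX gene, had 17.2 CPM in the bud and 77.7 CPM in the field.

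The largest increase of all genes tested was in NTS, which encodes the secreted peptide neurotensin. NTS had 1585 reads in the bud and 8 in the field, or 199 CPM (189 to 209) in the bud and 1.12 CPM (0.484 to 2.21) in the field, and was 178-fold higher (89.9 to 412) in the bud. Hindlimb HH18, neck and flank had 17.8, 7.99 and 0.483 CPM, so the forelimb bud had the highest level of these libraries. The netrin receptor UNC5D had 10.9 CPM in the bud, against 0.280 CPM in the field, and was 39-fold higher (10.5 to 327), with 0.520, 0.614 and 0.363 CPM in hindlimb, neck and flank. GBX2, a homeobox factor, had 15.7 CPM in the bud and 0.701 CPM in the field and was at 2.60 CPM in hindlimb. NDRG1, a gene known to respond to hypoxia and differentiation, was 19.3-fold higher (9.97 to 42.9) in the bud, with 24.4 CPM in the bud and 1.26 CPM in the field. KCNG1 and KCNG3 are silent subunits that modify voltage-gated potassium channels. KCNG1 had 32 CPM in the bud and 2.10 CPM in the field, and KCNG3, with 1 read in the field, was 71.7-fold higher (12.5 to 2866). TOM1L1, an endosomal adaptor, had 43 CPM in the bud and 3.51 CPM in the field.

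The largest decreases in named genes were in genes outside the limb lists. AHNAK2, a giant scaffold protein, had 1.26 CPM (0.603 to 2.31) in the bud and 63.8 CPM (58.1 to 69.9) in the field and was 50.8-fold lower (27.4 to 107) in the bud. SCARB1, the receptor that takes up cholesterol esters from high-density lipoprotein, had 1.51 CPM (0.779 to 2.63) in the bud and 55.1 CPM (49.8 to 60.8) in the field. Hindlimb, neck and flank had SCARB1 at 2.29, 1.84 and 2.42 CPM, so of the libraries set side by side here the field alone was high. WNT2B, a Wnt ligand that has been tied to limb initiation in chick, was likewise high in the field alone, with 0.880 CPM (0.354 to 1.81) in the bud and 29.0 CPM (25.2 to 33.3) in the field and at most 1.09 CPM in hindlimb, neck and flank. ABCC9, the sulfonylurea receptor subunit of potassium channels, had 2.51 CPM in the bud and 58.2 CPM in the field, with 164 CPM in flank. CDX2, a caudal homeobox factor, had 1 read in the bud, with 0.126 CPM in the bud and 12.3 CPM in the field, and was 98.2-fold lower (17.2 to 3922). LASS1, a ceramide synthase, had 1.63 CPM in the bud and 25.1 CPM in the field. An entry for a type II keratin with no gene symbol in the table, chosen from its values, had 47.4 CPM in the bud and 1126 CPM in the field.

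Several marker lists of other cell types differed between the libraries, and their values belong beside each group that follows. Summed levels cover all members of a list that were found, tested or not. In bulk tissue, fewer cells of a type and less RNA per cell cannot be told apart. Of 18 surface ectoderm and apical ridge markers tested, 1 (5.56%) was higher and 11 (61.1%) lower in the bud, with a median of -1.12. All genes had 3.43% higher and 6.17% lower. The surface ectoderm list summed to 93.7 CPM in the bud and 605 CPM in the field. The ridge genes FGF8, FGF4 and SP8 were below 1 CPM in both libraries, and CDH1, epithelial cadherin, had 18 CPM in the bud and 26.5 CPM in the field. Of 16 coelomic lining and splanchnic mesoderm markers, 1 (6.25%) was higher and 12 (75%) lower, with a median of -1.65. The coelomic list summed to 367 CPM in the bud and 1435 CPM in the field. BNC1 and BNC2 are zinc finger factors of mesothelium. BNC1 had 6.79 CPM in the bud and 66.9 CPM in the field, and BNC2 had 10.1 CPM in the bud and 60.4 CPM in the field. GATA5 and GATA6 are factors of splanchnic mesoderm and heart. GATA5 had 9.42 CPM in the bud and 83.7 CPM in the field, and GATA6 had 0.628 CPM in the bud and 18.5 CPM in the field. The mesothelial marker UPK3B had 0 reads in both libraries, and MSLN, another, had 0 CPM in the bud and 1.26 CPM in the field.

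Somite and blood markers were mostly higher. Of 11 somite and muscle precursor markers tested, 9 (81.8%) were higher in the bud and 1 (9.09%) lower, where all genes had 3.43% and 6.17%. The somite list had a median of 1.47 and summed to 145 CPM in the bud and 82.9 CPM in the field. PAX3 and PAX7 are paired box factors of muscle precursors. PAX3 had 14.8 CPM in the bud and 0.421 CPM in the field, and PAX7 had 5.15 CPM in the bud and 0.140 CPM in the field. The muscle determination gene MYOD1 had 0 reads in both libraries and MYF5, also a determination gene, had 1.63 CPM in the bud and 0 CPM in the field. The lower member was TNNC1, a troponin of slow and cardiac muscle, with 11.6 CPM in the bud and 53.1 CPM in the field. All 5 globins were higher. The 11 blood genes found, of which 7 were tested, summed to 2947 CPM in the bud and 792 CPM in the field. Of 21 endothelial markers, 3 (14.3%) were higher and 0 lower (5 and 0 under 3 other scalings). The endothelial list summed to 359.8 CPM in the bud and 241 CPM in the field. KDR, the VEGF receptor, had 15.8 CPM in the bud and 18.8 CPM in the field. Of 9 neural crest and glia markers, 3 (33.3%) were higher and 1 (11.1%) lower, with a median of -0.50. The neural crest list summed to 228 CPM in the bud and 167 CPM in the field, and the defining factor SOX10 had 0 reads in the bud. Of 14 cartilage and tendon markers, 3 (21.4%) were higher and 4 (28.6%) lower, and the list summed to 162 CPM in the bud and 269 CPM in the field. Heart muscle markers summed to 1.63 CPM in the bud and 12.1 CPM in the field, endoderm markers to 13.4 CPM in the bud and 31.3 CPM in the field, and the notochord and floor plate list, which holds KRT8 and COL2A1, to 77.7 CPM in the bud and 183 CPM in the field. Intermediate mesoderm markers summed to 70.2 CPM in the bud and 24.3 CPM in the field, macrophage markers to 18.6 CPM in the bud and 11.2 CPM in the field and germ cell markers to 24.1 CPM in the bud and 24.1 CPM in the field.

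Single members carried several of these sums, which were therefore also taken without the member whose CPM differed most, a step chosen after the data were seen. Without ETS1, a factor that also stands in the endothelial list, the neural crest and glia list summed to 82.4 CPM in the bud and 103.9 CPM in the field, the other direction. The endothelial list without ETS1 came to 214.6 CPM in the bud and 177.8 CPM in the field. Without EYA1, which also stands in the somite list, intermediate mesoderm markers summed to 30.2 CPM in the bud and 18.7 CPM in the field. The somite list without TNNC1 came to 132.9 CPM in the bud and 29.7 CPM in the field. The notochord and floor plate list without KRT8 came to 67.7 CPM in the bud and 65.2 CPM in the field, and the endoderm list without CDX2 to 13.3 CPM in the bud and 18.9 CPM in the field. Without their own such member, germ cell markers summed to 13.7 CPM in the bud and 23.6 CPM in the field and heart muscle markers to 1.38 CPM in the bud and 6.03 CPM in the field. The surface ectoderm list, without DSP, still summed to 65.6 CPM in the bud and 325.8 CPM in the field, and the coelomic list, without ALDH1A2, to 341 CPM in the bud and 904 CPM in the field. The part of these cell types in the results below was not tested. CDH1, FGF8, FGF4, SP8, MYOD1, MYF5, MSLN, KDR, SOX10 and UPK3B were chosen from their values.

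**Figure D2:**
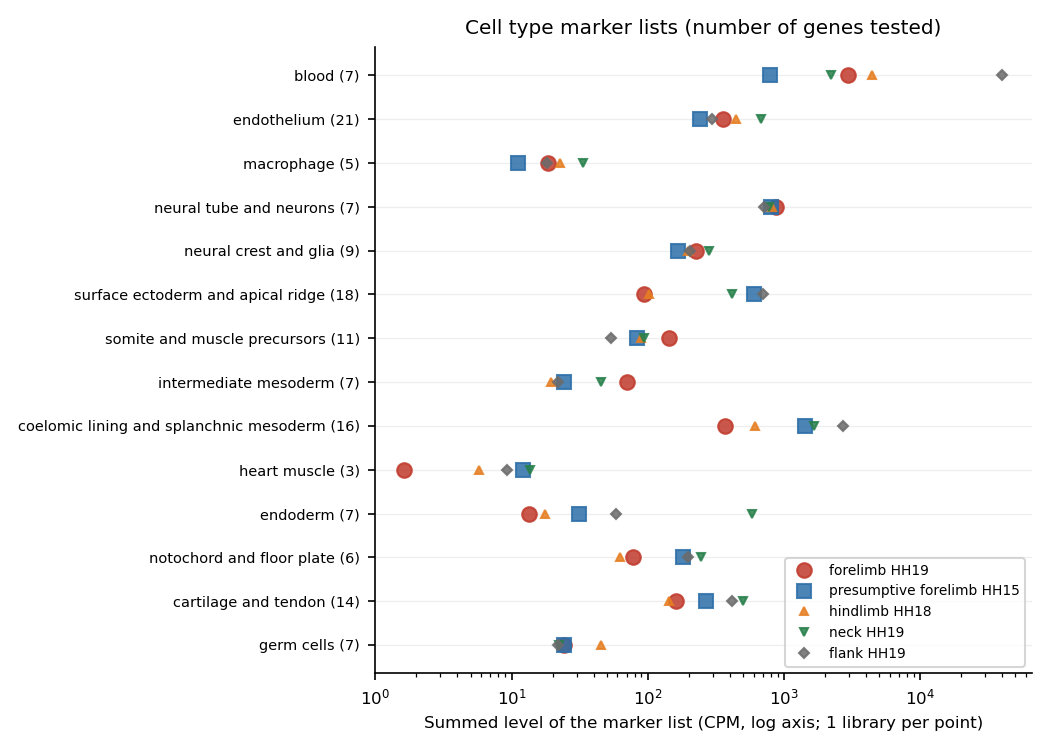
Summed CPM of all members found of each cell type marker list on a log axis, with the number of genes tested in brackets and 1 point per library. The coelomic and surface ectoderm lists were lower in forelimb HH19 than in presumptive forelimb HH15, and the blood and somite lists higher.

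Junction genes, those of the desmosome among them, were lower more often than higher. Of 24 tight, gap and adherens junction genes tested (desmosomal genes included), 1 (4.17%) was higher in the bud and 8 (33.3%) were lower. All genes had 3.43% and 6.17%. The median of the junction genes was -0.67 where all genes had -0.10. DSP, the desmoplakin that anchors keratin filaments to desmosomes, had 28.1 CPM (24.6 to 32.1) in the bud and 279 CPM (267 to 292) in the field and was 9.93-fold lower (8.64 to 11.5). The desmosomal cadherin DSC2 had 2 reads in the bud, with 0.251 CPM in the bud and 10.9 CPM in the field, and was 43.5-fold lower (11.7 to 366). Its partner DSG2 had 9.05 CPM in the bud and 29.3 CPM in the field. GJA1, a connexin of gap junctions, had 531 CPM in the bud and 868 CPM in the field and stayed within 2-fold, while the arterial connexin GJA5 was higher, with 6.28 CPM in the bud and 2.10 CPM in the field.

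Keratins form the filaments that desmosomes anchor. Of 8 keratins in the list of intermediate filament and microtubule genes, 5 were tested and these 5 were lower. Over all 24 genes tested in that list, 5 were higher and 6 lower, with a median of -0.20. KRT8, a keratin of simple epithelia, had 9.93 CPM in the bud and 118 CPM in the field. KRT19, its partner there, had 8.67 CPM in the bud and 100.1 CPM in the field. KRT5, a basal keratin, had 1.38 CPM in the bud and 26.4 CPM in the field. KRT14, of the basal epidermis, had 0.503 CPM in the bud and 5.05 CPM in the field. In flank, KRT8 was at 118 CPM and DSP at 423 CPM, and in hindlimb they were at 9.56 and 41.4 CPM, so that flank was near the field and hindlimb near the bud. VIM, the intermediate filament of mesenchyme, was 2.98-fold higher (2.72 to 3.26) in the bud, with 254 CPM in the bud and 85.3 CPM in the field. SNAI1, a repressor of epithelial genes, had 145 CPM in the bud and 43.8 CPM in the field. VIM and SNAI1 were chosen from their values. CDH11, also known from mesenchyme, went the other way, with 182 CPM in the bud and 378 CPM in the field. CDH2 and FN1, given below, were lower as well. DSP and the keratins KRT5, KRT8, KRT14 and KRT19 also stand in the surface ectoderm list, whose sum differed as given above, beside that of the coelomic list. What part ectoderm or lining cells have in these values was not tested.

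Cadherins past 2-fold were all lower. Of 9 classical and type II cadherins tested, 0 were higher and 4 (44.4%) lower (3 lower under 3 of the other scalings), with a median of -0.99. All genes had 3.43% higher and 6.17% lower, so 0 higher among so few genes says little. CDH2, neural cadherin, had 25.4 CPM (22 to 29.1) in the bud and 78.4 CPM (72.0 to 85.2) in the field and was 3.09-fold lower (2.62 to 3.65). CDH6 had 19.9 CPM in the bud and 54.8 CPM in the field with 0.208 CPM in hindlimb. CDH11, a cadherin of mesenchyme and the member with the most reads, had 182 CPM in the bud and 378 CPM in the field, a difference of -1.05 that was inside 2-fold under 3 of the other scalings. CDH1 and the endothelial CDH5, both outside the naming rule, were within 2-fold. Among 12 protocadherins and giant cadherins, 2 were lower: PCDH15, with 6.53 CPM in the bud and 30.6 CPM in the field, and FAT3, with 5.03 CPM in the bud and 16 CPM in the field. The planar polarity cadherin FAT1 had 192 CPM in the bud and 216 CPM in the field.

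Adhesion molecules of the immunoglobulin superfamily were lower more often than higher, as were all genes past 2-fold. Of 25 tested, 2 (8%) were higher and 7 (28%) lower, where all genes had 3.43% and 6.17%. Their median was -0.36. ALCAM, a homophilic adhesion molecule, had 14.1 CPM (11.6 to 16.9) in the bud and 192 CPM (182 to 203) in the field and was 13.7-fold lower (11.3 to 16.7). KIRREL3, a nephrin-like adhesion molecule, had 16 CPM in the bud and 94.5 CPM in the field and CADM1 had 53.0 CPM in the bud and 148 CPM in the field. NEGR1, a neural adhesion molecule with a membrane anchor, was one of the higher members, with 13.4 CPM in the bud and 0.841 CPM in the field. NCAM2, a relative of the neural adhesion molecule NCAM chosen from its values, was the other, with 4.40 CPM in the bud and 1.54 CPM in the field.

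Of 37 integrins and focal adhesion or actin linkers tested, 4 (10.8%) were past 2-fold, near the 9.60% of all genes. Of 9 integrin genes tested, 2 were higher and 1 lower (0 lower under each other scaling), with a median of 0.38. ITGA11 and ITGA1 are alpha chains of collagen receptors. ITGA11 had 6.03 CPM in the bud and 0.982 CPM in the field, and ITGA1 had 10.8 CPM in the bud and 4.63 CPM in the field. ITGA6, a laminin receptor chain, had 10.7 CPM in the bud and 22.4 CPM in the field, inside 2-fold under those scalings. ITGB1, the common beta chain, had 331 CPM in the bud and 255 CPM in the field and was within 2-fold. Of 28 focal adhesion and actin linker genes, 0 were higher and 1 lower, and their median of -0.05 changed sign under other scalings. The lower one was NEDD9, a docking protein of integrin signalling, with 7.79 CPM in the bud and 57.9 CPM in the field.

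Matrix genes past 2-fold were more often lower, collagens among them, as were all genes past 2-fold. Of 21 collagens other than type IV, 2 (9.52%) were higher and 10 (47.6%) lower, with a median of -0.38. All genes had 3.43% and 6.17%. COL3A1, a fibrillar collagen, had 38.5 CPM (34.3 to 43) in the bud and 154 CPM (145 to 164) in the field and was 4.01-fold lower (3.53 to 4.57). COL21A1 and COL22A1 are collagens that associate with fibrils. COL21A1 had 1 read in the bud, with 0.126 CPM in the bud and 7.15 CPM in the field, and was 56.9-fold lower (9.77 to 2292), and COL22A1 had 0.377 CPM in the bud and 4.77 CPM in the field. COL1A2 had 326.2 CPM in the bud and 417 CPM in the field, within 2-fold, and a second entry for it in the table may share its reads. The 2 higher collagens were COL24A1, a fibrillar collagen, with 54.0 CPM in the bud and 16.5 CPM in the field, and COL25A1, a membrane collagen, with 8.29 CPM in the bud and 0.982 CPM in the field. Of 18 basement membrane genes, 1 was higher and 3 lower, with a median of -0.25. COL4A5 had 80.7 CPM in the bud and 217 CPM in the field, whereas NID1, which links laminin to collagen networks, was higher at 80.4 CPM in the bud and 34.5 CPM in the field. LAMB1, a laminin chain, had 164 CPM in the bud and 230.4 CPM in the field.

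Of 40 matrix glycoproteins, 5 (12.5%) were higher and 9 (22.5%) lower, where all genes had 3.43% and 6.17%. Their median was -0.32. Under TMM scaling, DESeq2 scaling or centring, 5 were higher and 6 lower, so the lean to lower was then slight. FN1, fibronectin, had 240.1 CPM (229 to 251) in the bud and 620.0 CPM (602 to 639) in the field and was 2.58-fold lower (2.45 to 2.73). SMOC2 and SMOC1, a related pair of calcium-binding matrix proteins, ran in opposite directions. SMOC2 had 7.67 CPM in the bud and 48.2 CPM in the field, and SMOC1 had 34.3 CPM in the bud and 11.5 CPM in the field. POSTN, periostin, was higher, with 21.7 CPM in the bud and 4.21 CPM in the field. SPON1, a spondin, had 24.5 CPM in the bud and 4.91 CPM in the field. Neck and flank had POSTN at 186 and 77.4 CPM, above both forelimb libraries.

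Among 21 proteoglycans and linkers, 2 were higher and 3 lower, with a median of -0.29. HAPLN1, the link protein of hyaluronan and also a cartilage marker, had 30.7 CPM in the bud and 96.8 CPM in the field. The small proteoglycans decorin and osteoglycin ran apart. DCN, decorin, had 38.3 CPM in the bud and 93.3 CPM in the field, and OGN, osteoglycin, had 6.79 CPM in the bud and 0.982 CPM in the field. SDC2, a syndecan of the cell surface, had 9.80 CPM in the bud and 29.4 CPM in the field. Of 56 matrix processing genes, 2 were higher and 6 lower, with a median of -0.26. TIMP3, an inhibitor of metalloproteinases, had 7.41 CPM in the bud and 1.54 CPM in the field, and MMP11, a metalloproteinase of stroma, had 9.17 CPM in the bud and 3.51 CPM in the field. ADAMTS15, a versican-cleaving protease, was lower at 2.14 CPM in the bud and 9.12 CPM in the field. ADAM19 had 0 reads in the bud and was at least 4.09-fold lower against the floor (interval from 2.80-fold), with 0 CPM in the bud and 1.54 CPM in the field.

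**Figure D3:**
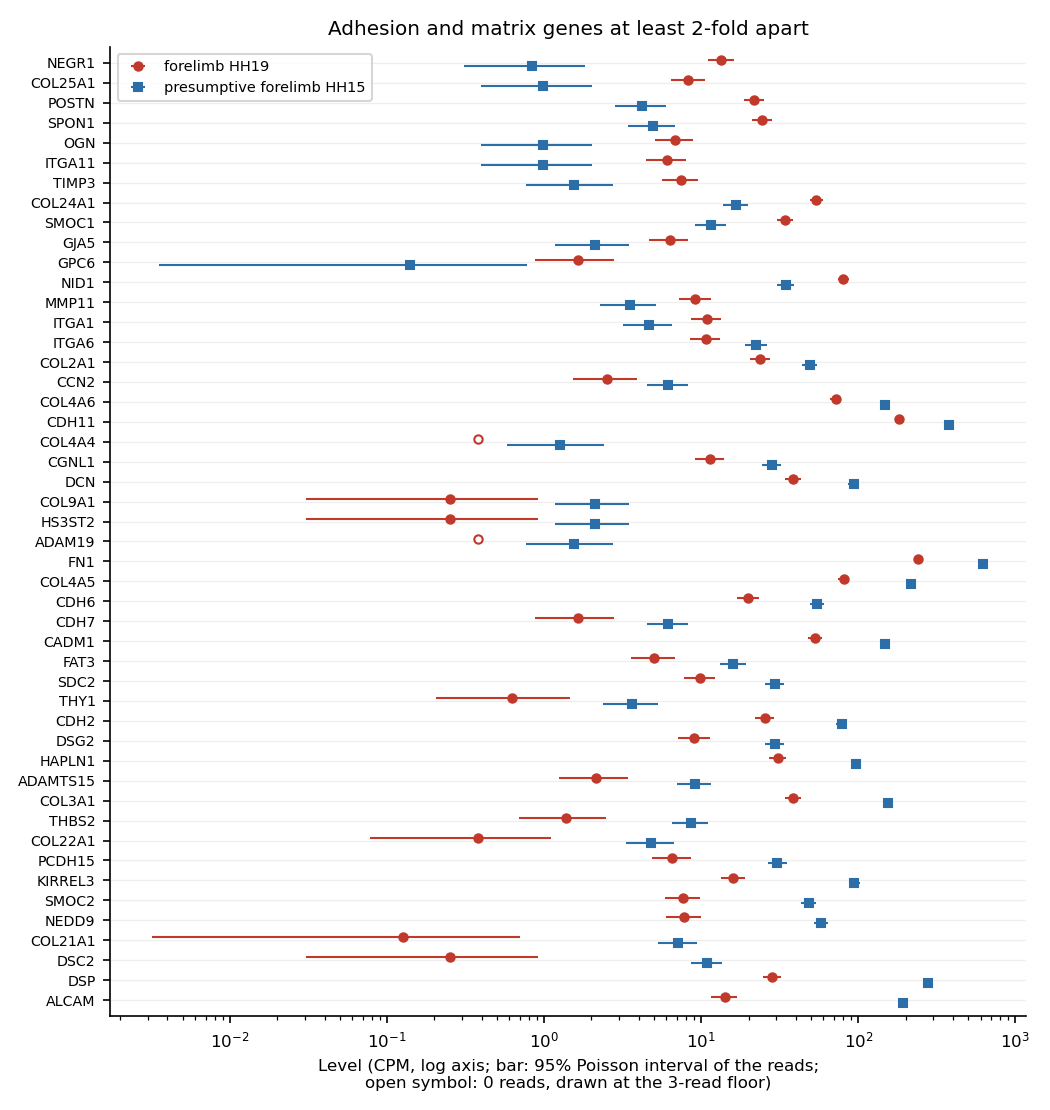
Levels in CPM on a log axis of 48 named adhesion and matrix genes past 2-fold, with forelimb HH19 as red circles, presumptive forelimb HH15 as blue squares and bars for 95% Poisson intervals (1 library each), sorted by the log2(CPM + 1) difference. Genes from ITGA1 up were higher in forelimb HH19, led by NEGR1 and COL25A1, and those below were lower, down to DSC2, DSP and ALCAM.

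Central carbon metabolism had almost no gene past 2-fold, where all genes had 3.43% higher and 6.17% lower. The comparison was not matched for level, and fewer genes of high level passed 2-fold, as given above. Of 21 glycolysis and lactate genes tested, 0 were higher and 1 lower, with a median of -0.18. The lower one was HKDC1, a hexokinase family member, with 0.126 CPM in the bud and 1.4 CPM in the field, from 1 read in the bud, and it was inside 2-fold when centred on the median. GAPDH had 6148 CPM in the bud and 7273 CPM in the field and LDHB, the heart-type lactate dehydrogenase, had 1627 CPM in the bud and 2221 CPM in the field. LDHA, the other subunit, had 25.1 CPM in the bud and 12.5 CPM in the field, a difference of 0.95 that passed 2-fold under 3 of the other scalings. Of 18 genes of the TCA cycle and pyruvate oxidation, 0 were higher and 0 lower, and in 7 genes of the pentose phosphate pathway the same counts held. MDH2 and SDHA are enzymes of the TCA cycle. MDH2 had 303 CPM in the bud and 241 CPM in the field, and SDHA had 129 CPM in the bud and 102 CPM in the field.

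The respiratory chain list had a median above that of all genes. Of 52 genes tested, 2 were higher and 0 lower, with a median of 0.13. COX8A, a small subunit of cytochrome oxidase, had 220.0 CPM (209.8 to 231) in the bud and 55.4 CPM (50.1 to 61.1) in the field and was 3.97-fold higher (3.56 to 4.44). Neck, flank and hindlimb had COX8A at 62.5, 84.2 and 71 CPM, all nearer to the field than to the bud. ATP5G3, a ring subunit of ATP synthase, had 847 CPM in the bud and 481 CPM in the field. The mitochondrially encoded COX1 had 31624 CPM in the bud and 29848 CPM in the field, and COX3 had 15273 CPM in the bud and 12318 CPM in the field. The ATP synthase subunits ATP6 and ATP8, also mitochondrially encoded, went the other way within 2-fold. ATP6 had 10534 CPM in the bud and 12945.5 CPM in the field. ATP8 had 6221 CPM in the bud and 6812 CPM in the field.

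Lipid genes past 2-fold were mostly lower, and so were all genes past 2-fold, with 405 higher and 729 lower. Of 21 genes of cholesterol synthesis and uptake, 1 was higher and 5 lower (2 lower under TMM and DESeq2 scaling), with a median of -0.55 and values of -0.44 and -0.42 under those scalings. MSMO1, a sterol oxidase of the pathway, had 24.0 CPM (20.7 to 27.7) in the bud and 59.5 CPM (53.9 to 65.4) in the field and was 2.48-fold lower (2.08 to 2.95). FDFT1, squalene synthase, had 37.8 CPM in the bud and 82.5 CPM in the field. NSDHL, a later enzyme, had 25.8 CPM in the bud and 55.8 CPM in the field. FDFT1 and NSDHL were inside 2-fold under TMM scaling. INSIG1, which retains the sterol sensor, had 1.51 CPM in the bud and 5.05 CPM in the field. NPC2, a lysosomal cholesterol carrier, was higher at 11.6 CPM in the bud and 4.91 CPM in the field. Of 32 fatty acid genes, 0 were higher and 7 lower, with a median of -0.22. ACOX2 and ACOX3 are peroxisomal oxidases. ACOX2 had 1.63 CPM in the bud and 6.59 CPM in the field, and ACOX3 had 0.880 CPM in the bud and 3.51 CPM in the field. ELOVL6, an elongase, had 8.80 CPM in the bud and 21.6 CPM in the field and FADS2, a desaturase, had 62.7 CPM in the bud and 137 CPM in the field, inside 2-fold under DESeq2 scaling. The fatty acid binding protein FABP7 had 686 CPM in the bud and 641 CPM in the field.

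Genes of serine, nucleotide and polyamine synthesis were nearly all within 2-fold, 96.5% of them beside 90.4% of all genes, shares that were not matched for level. Of 28 serine, glycine and one-carbon genes, 0 were higher and 1 lower, with a median of 0.14. PHGDH and PSAT1 are the first enzymes of serine synthesis. PHGDH had 46.6 CPM in the bud and 25.8 CPM in the field, and PSAT1 had 53.7 CPM in the bud and 29.2 CPM in the field, both within 2-fold. The lower one was BHMT, a betaine methyltransferase, with 7.29 CPM in the bud and 17.8 CPM in the field. Among 39 nucleotide synthesis genes, 0 were higher and 1 lower, PRPS2, which makes phosphoribosyl pyrophosphate, with 0.880 CPM in the bud and 2.80 CPM in the field, inside 2-fold under 3 of the other scalings. AMD1, which supplies decarboxylated S-adenosylmethionine for polyamines, had 119.8 CPM in the bud and 256 CPM in the field, inside 2-fold under the same 3, and ODC1, ornithine decarboxylase, had 168 CPM in the bud and 224 CPM in the field. The list of 19 polyamine and creatine genes had 0 higher and 1 lower, but 2 higher and 0 lower under those 3. Of 37 redox genes, 1 was higher and 0 lower (2 higher under those 3), GPX3, a secreted glutathione peroxidase, with 43.2 CPM in the bud and 16.4 CPM in the field. Among 29 genes of amino acid supply and ATF4 targets, 1 was higher and 2 lower. SLC7A11, the cystine transporter that feeds glutathione synthesis, had 0.251 CPM in the bud and 2.52 CPM in the field, and CHAC1, which degrades glutathione, was higher, with 1.76 CPM in the bud and 0.280 CPM in the field. Of 24 heme and iron genes, 1 was higher and 1 lower (0 lower under each other scaling).

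Retinoid and steroid genes had the widest range of the metabolic lists. Of 20 retinoid and steroid genes tested, 2 were higher and 3 lower, with a median of -0.16. ALDH1A2, which makes retinoic acid, had 25.8 CPM (22.4 to 29.5) in the bud and 531 CPM (514 to 548) in the field and was 20.6-fold lower (17.9 to 23.8). ALDH1A2 also stands in the coelomic list given above. Flank had 1369.6 CPM, neck 824 CPM and hindlimb 62.1 CPM. CRABP1, which binds retinoic acid in the cytoplasm, had 629.9 CPM (612.6 to 648) in the bud and 123 CPM (115 to 132) in the field and was 5.11-fold higher (4.76 to 5.50). LRAT, which esterifies retinol for storage, had 8.80 CPM in the bud and 0.561 CPM in the field, and DHRS3, which reduces retinal, had 6.16 CPM in the bud and 15.1 CPM in the field. HSD17B2, a steroid dehydrogenase, had 2 reads in the bud, with 0.251 CPM in the bud and 12.8 CPM in the field, and was 50.8-fold lower (13.7 to 426). In flank it was at 47.4 CPM. The enzymes that degrade retinoic acid, chosen from their values, were within 2-fold. CYP26A1 had 6.16 CPM in the bud and 3.65 CPM in the field, and CYP26B1 had 3.02 CPM in the bud and 5.33 CPM in the field.

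**Figure D4:**
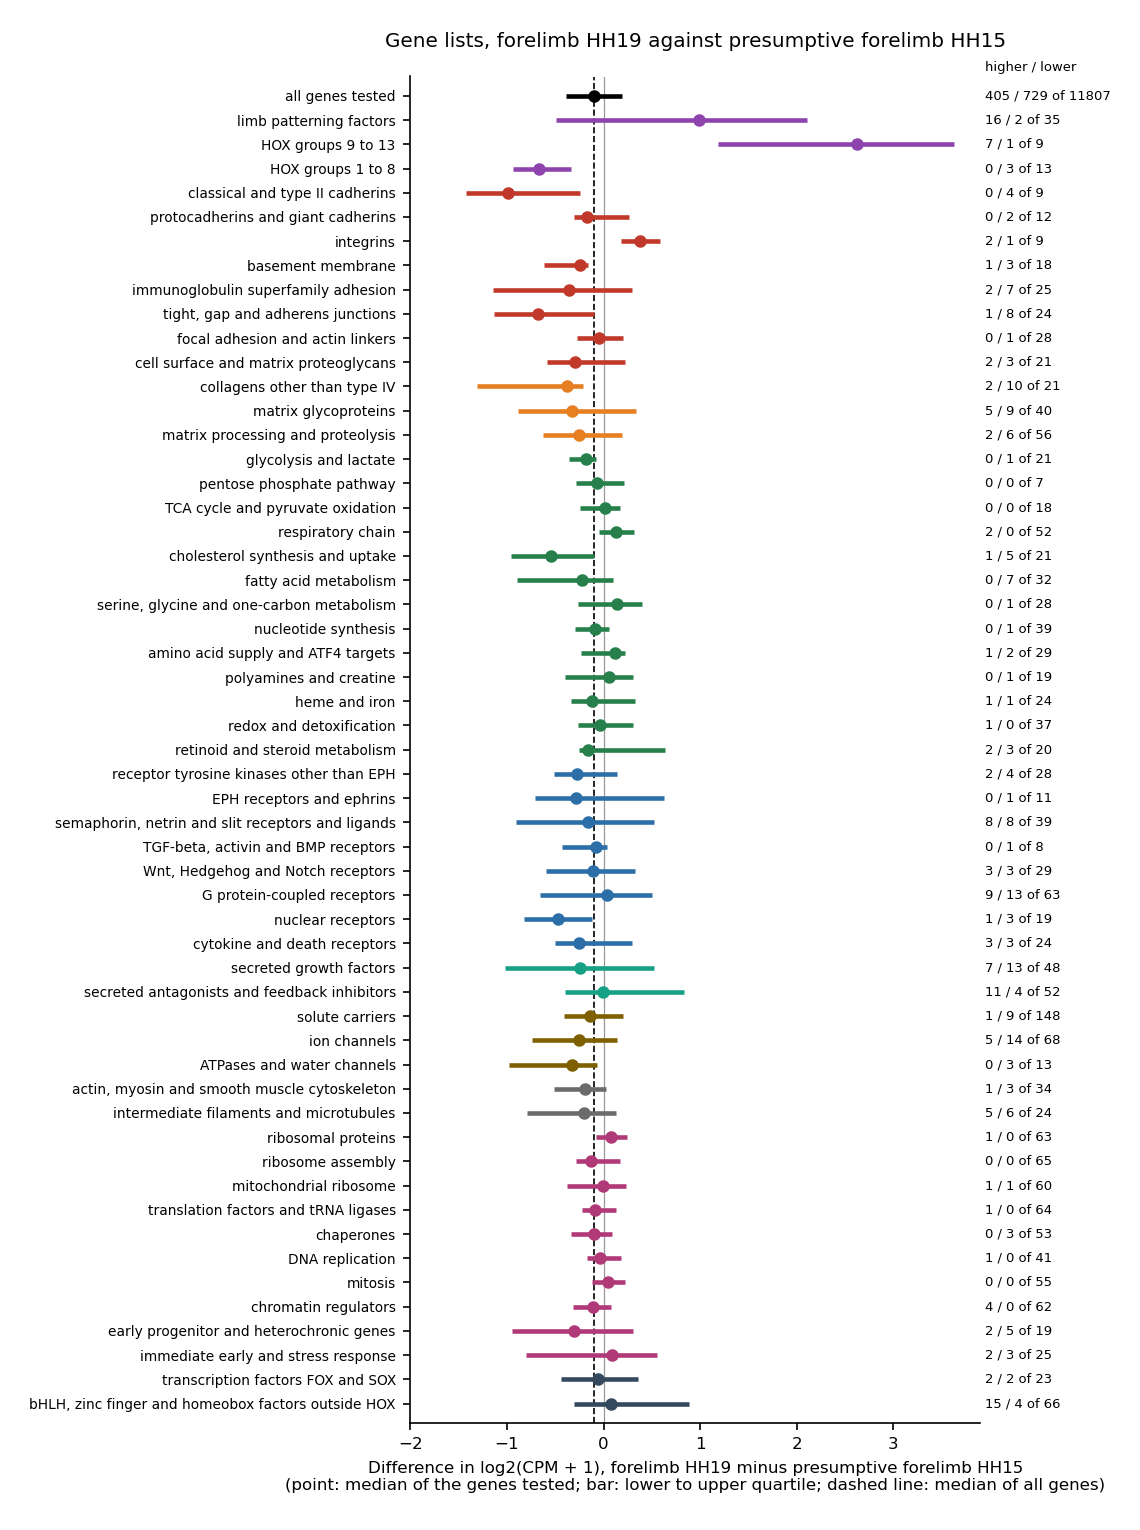
Median (point) and quartiles (bar) of the difference in log2(CPM + 1), forelimb HH19 minus presumptive forelimb HH15, of each gene list other than the cell type markers, with the number higher and lower at the right and the median of all genes dashed. Posterior HOX genes had the highest median, cadherins the lowest, and the lists of central metabolism, replication and mitosis lay near the dashed line.

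Among receptor tyrosine kinases outside the EPH family, 2 of 28 (7.14%) were higher and 4 (14.3%) lower, with a median of -0.28. All genes had 3.43% and 6.17%. Under TMM scaling, 4 of these kinases were higher and 4 lower. FGFR2, an FGF receptor known from ectoderm and early mesenchyme, had 10.9 CPM (8.76 to 13.5) in the bud and 51.2 CPM (46.1 to 56.7) in the field and was 4.68-fold lower (3.70 to 5.99). FGFR3, an FGF receptor known from cartilage, had 9.55 CPM (7.52 to 12) in the bud and 40.8 CPM (36.3 to 45.8) in the field and was 4.27-fold lower (3.31 to 5.58). FGFR1, the main FGF receptor of limb mesenchyme and outside the naming rule, had 165 CPM in the bud and 181 CPM in the field. MET, the HGF receptor of migrating muscle precursors and a member of the somite list, was 6.27-fold higher (2.97 to 15.2), with 7.04 CPM in the bud and 1.12 CPM in the field. Its ligand HGF, chosen from its values, had 228 CPM (218 to 239) in the bud and 50.9 CPM (45.8 to 56.4) in the field. ROS1, an orphan kinase, had 0 CPM in the bud and 1.96 CPM in the field, and with 0 reads in the bud was at least 5.21-fold lower against the floor (interval from 3.70-fold). PTK7, a kinase-dead receptor of planar polarity, had 274 CPM in the bud and 314 CPM in the field. Of 11 EPH receptors and ephrins, 0 were higher (1 under DESeq2 scaling) and 1 lower, EPHA3, with 6.28 CPM in the bud and 15.8 CPM in the field. EPHA4, the member with the most reads, had 133 CPM in the bud and 72.2 CPM in the field.

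Guidance genes moved in both directions. Of 39 semaphorin, netrin and slit receptors and ligands tested, 8 (20.5%) were higher and 8 (20.5%) lower, where all genes had 3.43% and 6.17%, with a median of -0.16. On the receptor side, PLXNA2, a plexin, had 5.28 CPM (3.80 to 7.13) in the bud and 49.6 CPM (44.6 to 55.1) in the field and was 9.41-fold lower (6.82 to 13.3). NRP2, a neuropilin that binds semaphorins and VEGF, had 32.7 CPM (28.8 to 36.9) in the bud and 237 CPM (226 to 249) in the field and was 7.26-fold lower (6.37 to 8.31). UNC5D, given above, was higher, while its relative UNC5C was lower at 8.80 CPM in the bud and 43.5 CPM in the field. ROBO2, a slit receptor, had 26.4 CPM in the bud and 9.82 CPM in the field. On the ligand side, SEMA3A, a secreted semaphorin, had 22.5 CPM in the bud and 115 CPM in the field. SEMA5A and SEMA5B are membrane semaphorins with thrombospondin repeats. SEMA5A had 139 CPM in the bud and 18.7 CPM in the field, and SEMA5B had 103 CPM in the bud and 39.3 CPM in the field. SLIT2 had 22.9 CPM in the bud and 8.83 CPM in the field, and SLIT3 had 6.16 CPM in the bud and 20.1 CPM in the field. UNC5C, ROBO2, SEMA5B, SLIT2 and SLIT3 were chosen from their values.

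BMP and activin receptors were within 2-fold, apart from the decoy receptor BAMBI. Of 8 TGF-beta family receptors tested, 0 were higher and 1 lower, and the median of -0.08 changed sign under other scalings. BAMBI had 21.6 CPM (18.5 to 25.1) in the bud and 151 CPM (143 to 161) in the field and was 7.01-fold lower (5.96 to 8.28). ACVR2A, an activin receptor, had 86.1 CPM in the bud and 111 CPM in the field. Of 29 Wnt, Hedgehog and Notch receptors and membrane partners, 3 (10.3%) were higher and 3 (10.3%) lower. All genes had 3.43% and 6.17%. The median of -0.11 of these receptors and partners changed sign under other scalings. FZD7, a frizzled of early mesoderm, had 230.0 CPM in the bud and 478 CPM in the field, inside 2-fold under 3 of the other scalings. FZD4, a frizzled known from vessels, had 20.4 CPM in the bud and 7.15 CPM in the field. LGR5, an R-spondin receptor, was 5.45-fold higher (3.01 to 10.7), with 9.93 CPM in the bud and 1.82 CPM in the field. Among Notch ligands, JAG1 had 3.64 CPM in the bud and 16.1 CPM in the field, and JAG2, which the apical ridge makes, had 9.05 CPM in the bud and 3.51 CPM in the field. Hindlimb had JAG1 at 37.9 CPM.

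Among G protein-coupled receptors, 9 of 63 tested (14.3%) were higher and 13 (20.6%) lower, where all genes had 3.43% and 6.17%. Their median was 0.03. EDNRB, an endothelin receptor and the lower member of the neural crest list, had 1.01 CPM (0.434 to 1.98) in the bud and 24.4 CPM (20.9 to 28.3) in the field and was 24.3-fold lower (12 to 57.1). Its relative EDNRA, chosen from its values, had 28.3 CPM in the bud and 12.1 CPM in the field. NPY2R, a neuropeptide Y receptor, was 13.2-fold higher (6.96 to 28), with 18.5 CPM in the bud and 1.4 CPM in the field. P2RY1, a purine receptor, had 11.8 CPM in the bud and 2.24 CPM in the field, and LPHN2, an adhesion receptor, had 76.5 CPM in the bud and 33.4 CPM in the field. FSHR, a gonadotropin receptor, had 0 CPM in the bud and 3.65 CPM in the field and was at least 9.67-fold lower against the floor (interval from 7.32-fold). GPR98, a giant adhesion receptor, had 0 CPM in the bud and 4.07 CPM in the field and was at least 10.8-fold lower against the floor (interval from 8.23-fold). CXCR4, a chemokine receptor of migrating cells and of the somite list, had 10.3 CPM in the bud and 3.93 CPM in the field, and its ligand CXCL12 had 11.1 CPM in the bud and 1.26 CPM in the field, both chosen from their values.

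Of 19 nuclear receptors, 1 (5.26%) was higher and 3 (15.8%) lower, with a median of -0.48. All genes had 3.43% and 6.17%. THRB, a thyroid hormone receptor, had 2.26 CPM in the bud and 17.1 CPM in the field. NR3C2, the mineralocorticoid receptor, was the higher one, with 8.42 CPM in the bud and 1.4 CPM in the field. NR2F2, an orphan receptor of venous and mesenchymal cells, had 120.0 CPM in the bud and 246 CPM in the field, inside 2-fold under each other scaling. Of 24 cytokine and death receptors, 3 (12.5%) were higher and 3 (12.5%) lower, with a median of -0.25. FAS, a death receptor, had 2.64 CPM (1.63 to 4.03) in the bud and 39.4 CPM (34.9 to 44.3) in the field and was 14.9-fold lower (9.58 to 24.5), and hindlimb had 36.2 CPM, close to the field. IL13RA1, a cytokine receptor, had 2.14 CPM in the bud and 22.6 CPM in the field. NGFR, a neurotrophin receptor of neural crest and mesenchyme, had 17.6 CPM in the bud and 2.10 CPM in the field.

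Secreted factors ran in both directions. Of 48 growth factors and peptides tested, 7 (14.6%) were higher and 13 (27.1%) lower, with a median of -0.24. All genes had 3.43% and 6.17%. Centred on the median, 9 of these factors were higher and 10 lower. Besides NTS and HGF, the higher ones included VEGFD, a growth factor of lymphatic vessels, with 85.2 CPM (78.9 to 91.9) in the bud and 9.68 CPM (7.53 to 12.2) in the field, and SHH, the signal of the posterior limb, with 3.52 CPM in the bud and 0.982 CPM in the field. FGF18 had 5.40 CPM in the bud and 0.280 CPM in the field, and FGF10, which signals to the ridge, had 13.4 CPM in the bud and 6.31 CPM in the field, a difference of 0.98. Among the lower ones, the BMP family ligand BMP5 had 2.01 CPM in the bud and 21.6 CPM in the field, and GDF3, a TGF-beta family ligand, had 3.02 CPM in the bud and 21.0 CPM in the field. The stem cell factor KITLG had 9.68 CPM in the bud and 25.4 CPM in the field. MDK, the heparin-binding midkine and the member with the most reads, had 1370.2 CPM in the bud and 1354 CPM in the field. FGF18, FGF10 and KITLG were chosen from their values.

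Inhibitors past 2-fold were more often higher. Of 52 antagonists and feedback inhibitors, 11 (21.2%) were higher and 4 (7.69%) lower (2 lower under TMM scaling), where all genes had 3.43% and 6.17%. The median of -0.01 of these inhibitors changed sign under other scalings. Feedback inhibitors of FGF signalling were among the higher ones. SPRY4 had 1 read in the field, with 4.15 CPM in the bud and 0.140 CPM in the field, and was 29.6-fold higher (4.95 to 1203). SPRY2 had 22.2 CPM in the bud and 5.19 CPM in the field. DUSP6, a phosphatase of MAP kinase that FGF induces, had 77.2 CPM in the bud and 26.2 CPM in the field, and IL17RD, a membrane inhibitor of FGF receptors, had 92.7 CPM in the bud and 15.4 CPM in the field. CHRDL1, a BMP antagonist, was 21.9-fold higher (9.12 to 68.5), with 15.3 CPM in the bud and 0.701 CPM in the field. APCDD1, a membrane inhibitor of Wnt signalling, had 305 CPM in the bud and 70.8 CPM in the field. FSTL4, a follistatin-like protein, had 36.4 CPM in the bud and 5.89 CPM in the field, with 2.49 CPM in hindlimb. Among the lower ones, the Wnt inhibitor WIF1 had 16.5 CPM in the bud and 56.1 CPM in the field. SPRY2, DUSP6, APCDD1 and WIF1 were chosen from their values.

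**Figure D5:**
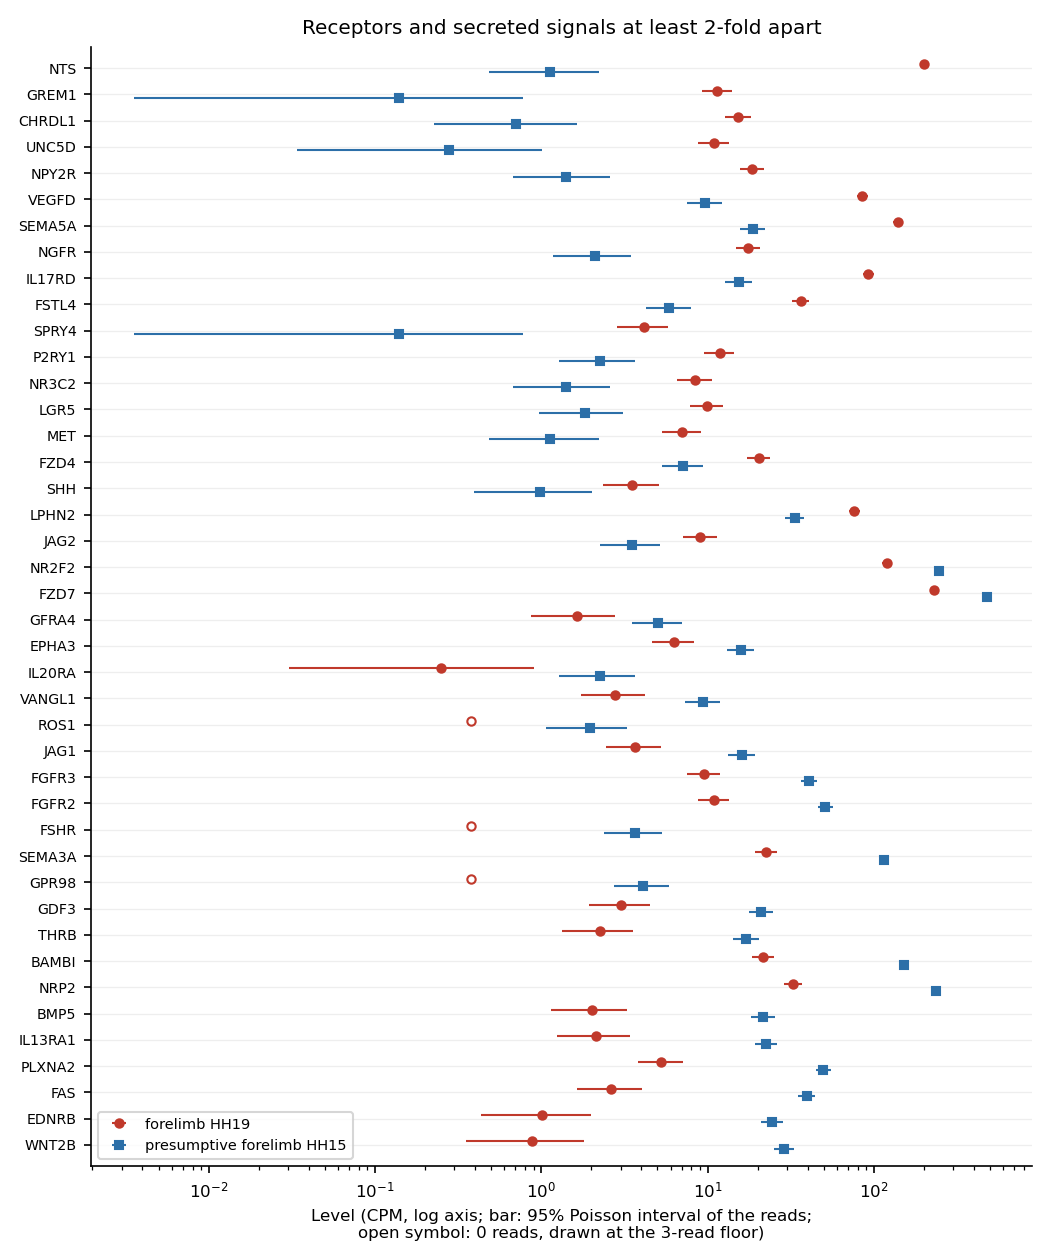
Levels in CPM on a log axis of 42 named receptor, ligand and inhibitor genes past 2-fold, with forelimb HH19 as red circles, presumptive forelimb HH15 as blue squares and bars for 95% Poisson intervals (1 library each), sorted by the log2(CPM + 1) difference. Genes from JAG2 up were higher in forelimb HH19, led by NTS, GREM1 and CHRDL1, and those below were lower, down to FAS, EDNRB and WNT2B.

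Solute carriers stayed within 2-fold at 93.2%, near the 90.4% of all genes. Of 148 tested, 1 (0.676%, against 3.43% of all genes) was higher and 9 (6.08%, against 6.17%) were lower, and 3 other scalings gave 2 higher and 6 or 7 lower, with a median of -0.14. SLC16A9, a carnitine carrier, had 6.66 CPM in the bud and 43.2 CPM in the field, and SLC1A3, a glutamate transporter, had 0.503 CPM in the bud and 5.19 CPM in the field. The higher one was SLC25A39, a mitochondrial glutathione carrier, with 59.6 CPM in the bud and 25.9 CPM in the field. Of 68 ion channel genes, 5 (7.35%) were higher and 14 (20.6%) lower, with a median of -0.25. KCNG1 and KCNG3, given above, were among the higher ones. GRIN3A, a glutamate receptor subunit, had 1.38 CPM in the bud and 14.2 CPM in the field, and KCNT1, a sodium-activated potassium channel with 1 read in the bud, had 0.126 CPM in the bud and 4.91 CPM in the field. KCNAB1, a cytoplasmic beta subunit, was higher at 67.0 CPM in the bud and 25.8 CPM in the field. In the list of pumps and water channels, 0 of 13 were higher and 3 lower, among them AQP1, a water channel, with 1.01 CPM in the bud and 4.63 CPM in the field.

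In the cytoskeleton outside the keratins, 34 actin, myosin and smooth muscle genes had 1 (2.94%) higher and 3 (8.82%) lower. These shares were near the 3.43% and 6.17% of all genes. Under 3 of the other scalings, 3 were higher and 3 lower. ACTA2, smooth muscle actin, had 8.67 CPM in the bud and 21.5 CPM in the field, and EZR, the membrane linker ezrin, had 2.76 CPM in the bud and 8.98 CPM in the field. The neurofilament gene NEFL had 8.80 CPM in the bud and 1.96 CPM in the field. NEFM had 14.1 CPM in the bud and 4.07 CPM in the field. Beside them, the 15 neural genes found, of which 7 were tested, summed to 879.6 CPM in the bud and 799.8 CPM in the field. Of the 7 tested, 2 were higher and 0 lower. Most of the sum was FABP7, which also stands in the fatty acid list. Without FABP7 the neural list summed to 193.6 CPM in the bud and 159.2 CPM in the field.

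Genes of growth and division were within 2-fold at 98%, beside 90.4% of all genes. These shares were not matched for level, and fewer genes of high level passed 2-fold, as given above. The 63 ribosomal protein genes alone summed to 115488 CPM in the bud. Of 55 mitosis genes tested, 0 were higher and 0 lower, with a median of 0.05 and a range of -0.92 to 0.54. CDK1, the mitotic kinase, had 811 CPM in the bud and 670.0 CPM in the field. Of 41 replication genes, 1 was higher and 0 lower, RPA3, a subunit of the protein that coats single-stranded DNA, with 83.7 CPM in the bud and 24.8 CPM in the field. Of 63 ribosomal protein genes, 1 was higher and 0 lower, RPS27A, a fusion of ubiquitin and a ribosomal protein, with 1889 CPM (1859 to 1919.5) in the bud and 607 CPM (589 to 625) in the field. The 65 ribosome assembly genes had 0 higher and 0 lower, the 60 mitochondrial ribosome genes 1 and 1 (3 and 1 under TMM scaling), and the 64 translation genes 1 and 0 (2 and 0). Of 53 chaperones, 0 were higher and 3 lower, among them the small heat shock protein HSPB8, with 0.880 CPM in the bud and 11.6 CPM in the field.

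Of 62 chromatin regulators, 4 (6.45%, against 3.43% of all genes) were higher and 0 (against 6.17%) lower. The share past 2-fold in either direction was thus below the 9.60% of all genes. With plain CPM, 39 of the 62 had a difference below 0, and the median of -0.11 changed sign under other scalings. MECOM and PRDM16 are related zinc finger factors. MECOM had 68.7 CPM in the bud and 6.73 CPM in the field, and PRDM16, which also stands in the limb list, had 124 CPM in the bud and 13.6 CPM in the field. JARID2, a partner of the repressive Polycomb complex, had 342 CPM in the bud and 153 CPM in the field, and CBX7, a Polycomb subunit, had 2.89 CPM in the bud and 0.561 CPM in the field.

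Genes of early progenitors past 2-fold were more often lower, as were all genes past 2-fold. Of 19 such genes, 2 (10.5%) were higher and 5 (26.3%) lower, where all genes had 3.43% and 6.17%. Their median was -0.31. LIN28A, an RNA-binding protein of early embryonic cells, had 35.8 CPM (31.8 to 40.2) in the bud and 336 CPM (323 to 349.7) in the field and was 9.38-fold lower (8.29 to 10.6). LIN28B, its relative, was within 2-fold at 162 CPM in the bud and 246 CPM in the field, and the heterochronic TRIM71 had 107 CPM in the bud and 131 CPM in the field, both chosen from their values. PRTG, protogenin, a receptor of early mesoderm and neural tissue, had 49.5 CPM in the bud and 237 CPM in the field. Hindlimb, neck and flank had LIN28A at 85.2, 45 and 46.9 CPM, all below the field.

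The bHLH, zinc finger and homeobox factors outside HOX were higher more often than lower, and the FOX and SOX factors were not. Of 66 bHLH, zinc finger and homeobox factors, 15 (22.7%) were higher and 4 (6.06%) lower, with a median of 0.08. All genes had 3.43% and 6.17%, so the lower share was near that of all genes. ID1, an inhibitor of bHLH factors that responds to BMP, had 86.6 CPM (80.2 to 93.3) in the bud and 12.1 CPM (9.65 to 14.9) in the field and was 7.18-fold higher (5.73 to 9.09). MSC, musculin, had 0 reads in the field and was at least 23.3-fold higher against the floor (interval from 18.5-fold), with 9.80 CPM in the bud and 0 CPM in the field. EYA1, a cofactor in muscle precursors and other progenitors that also stands in the somite list, had 40.1 CPM in the bud and 5.61 CPM in the field. EBF2, a helix-loop-helix factor, had 14.2 CPM in the bud and 1.68 CPM in the field. RUNX1, a runt factor with more than 1 entry in the table, was lower in the entry with the most reads, with 6.41 CPM in the bud and 44.9 CPM in the field. Of 23 FOX and SOX factors, 2 were higher and 2 lower. SOX8, a SOX factor also in the neural crest list, had 23.2 CPM in the bud and 5.89 CPM in the field, and FOXP4, a forkhead factor, had 20.4 CPM in the bud and 64.5 CPM in the field. EGR1, an immediate early factor that growth signals induce and that also marks tendon, had 10.3 CPM in the bud and 0.701 CPM in the field. In all, 2 of 25 immediate early and stress genes were higher and 3 lower.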

How the data were processed

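PolyA RNA of 6 chick tissue samples was sequenced, 1 library each. Raw read counts per gene, CPM values, pairwise fold values and p-values stand in 1 deposited table of the authors. The CPM values are the read counts per 1000000 reads on the table's genes in each library, by the authors per the file headers, and recomputing them gave differences of at most 4.91e-11. The fold ratios and p-values deposited by the authors were not used, since each rests on 1 library a side. Per the submitters' processing notes, TopHat 1.4.0 and the chicken build galGal4 were named. Their roles are not given there, and the counter, the annotation and its use of strand are not given in the sources used here.

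Columns were matched to samples by name. The flank column reads 9 where its label gives HH19, and 1 column, that of flank and neck, was matched by initials. No per-sample column was left over. Names came from the table, from its UniProt entries or from RefSeq protein accessions, and 8243 of the 11807 genes tested had one. Genes with near-identical copies may share reads.

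The difference was log2(CPM + 1) in forelimb HH19 minus presumptive forelimb HH15, with a pseudocount of 1 CPM, which understates the change of low genes, for genes at 1 CPM or more in either library. The minimum of 1 CPM was 7.96 reads in forelimb HH19 and 7.13 in presumptive forelimb HH15. Intervals were exact (Poisson for a level, Clopper-Pearson on the split of reads for a ratio) at 95%, and a ratio against 0 reads was bounded with 3 reads per library. The interval computation was tested on simulated data. Genes were named as the 15 largest log2 differences and the 10 largest CPM differences in each direction, and, in each of 68 gene lists, up to 5 largest differences and the member with the highest CPM, which gave 379 genes. A symbol with several entries was taken at its highest mean CPM. The lists and the genes described were chosen with earlier results of these data known, and further genes, marked in the text, were chosen from their values. A few genes that the naming rule reached are not reported here. No test was made. Alternatives were TMM (edgeR 4.0.16) and median-of-ratios (DESeq2 1.42.0, R 4.3.3) scaling, used for size factors only, centring, library totals without the gene with the most reads and the globins, another pseudocount, other filters, the interval wholly beyond 2-fold and 4-fold. Computation used Python 3.11.15, pandas 2.3.3 and scipy 1.17.1. No genome sequence was used.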

Additional observations from a re-analysis of the deposited data

How the results depend on the processing

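With plain CPM, 405 genes were at least 2-fold higher in forelimb HH19 and 729 lower. The other scalings kept both counts within 1.5 times: 498 higher and 603 lower with DESeq2 size factors (490 higher with TMM), 500 and 575 when centred on the median difference, and 438 and 732 with totals without the gene with the most reads and the globins. The higher share of the genes past 2-fold was 44.4% with TMM, 45.2% with DESeq2 size factors and 46.5% when centred, against 35.7% with plain CPM. A pseudocount of 0.1 CPM gave 640 higher and 1162 lower, since low genes then pass the fold more easily. No filter gave the same 405 and 729. That was certain beforehand, since genes under 1 CPM in both libraries cannot reach 2-fold on log2(CPM + 1). A minimum of 5 CPM gave 304 and 410, with 9022 genes tested. Genes whose counting interval lay wholly beyond 2-fold numbered 229 and 390, and genes past 4-fold 84 and 135. Of 379 named genes, 218 were past 2-fold, of which 16 fell inside it under at least 1 of the other scalings and 0 under the smaller pseudocount. That 0 was fixed in advance, since a smaller pseudocount only widens a difference. Among the 161 other named genes, 12 passed 2-fold under a scaling and 22 under the smaller pseudocount. The median of 17 of 67 lists and the difference of 4 of 379 named genes changed sign under some alternative, and 0 of the changes past 2-fold did. The alternatives shift a difference by too little to reverse one past 2-fold, so this last count shows nothing about stability. No paired analysis was possible because each group had 1 library. For the same reason no library could be left out. Depth limits the low genes most, since 1 CPM was 7.96 reads in forelimb HH19 and 7.13 in presumptive forelimb HH15.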
